A study of Mus musculus with 4 samples.

Results

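The genes described here code for 9 proteins that monocytes and macrophages secrete or carry at their surface to build, clot, bind or cut the extracellular matrix: F13a1, Fn1, Vcan, Thbs1, Sdc4, Mmp12, Mmp13, Mmp14 and Timp2. They were taken by name from the 12596 genes of the table, and all 9 were found. They were selected on their levels in these same cells, with earlier results of the data known, so the contrast between cell classes that they span is given as a description, with no test.

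Colon lamina propria cells came from male C57/Bl6N mice that were gavaged on 5 days a week for about 6 months. The 2 DEP mice (numbers 14 and 15) received 12 µg of diesel exhaust particles in 200 µL of phosphate-buffered saline each time, and the 2 PBS mice (numbers 2 and 3) received the saline alone. The animals had no genetic alteration, and their age at sacrifice is not given in the sources used here. Cells were sorted on CD11b and on Ly6C or CD64, the surface proteins of monocytes and macrophages, and each mouse filled 1 well of a droplet device that counts the 3′ ends of transcripts with unique molecular identifiers (UMIs).

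The 943 deposited cells held 747351 to 1349134 UMIs per mouse. Cells with UMIs of at least 3 markers of another cell type were left out, which removed 300 cells, 281 of them on B or plasma cell markers and 253 of these C1q-high. The loss was unequal: 78 of 189 and 140 of 334 cells of the DEP mice, against 31 of 200 and 51 of 220 cells of the PBS mice. Immunoglobulin transcripts made up 21694 and 30184 CPM (UMIs scaled to a total of 1000000 per library) in the deposited cells of the DEP mice and 1467 and 8625 CPM in those of the PBS mice. When immunoglobulins and Jchain were dropped from the B and plasma list, 19 of the 281 cells were still left out on it. For most differences described for the 643 retained cells whose group order or size changed in all deposited cells, those values are given as well. The part of immunoglobulin RNA in these changes was not tested. Mice shared 1 cell barcode.

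Retained cells were read in 2 classes. Plac8-high cells held at least 2 UMIs of Plac8, a transcript of newly arrived monocytes, and numbered 42, 58, 32 and 28 in DEP 14, DEP 15, PBS 2 and PBS 3. C1q-high cells had at least 0.5% of their UMIs in C1qa, C1qb and C1qc, the complement genes of resident macrophages, and numbered 80, 136, 149 and 141. A group of 38 cells met both rules, 16 of them from PBS 2, and 15 cells met neither. The 12 monocyte markers together reached 7182 to 12001 CPM in Plac8-high cells and 616 to 1573 in C1q-high cells, and the 13 resident macrophage markers reached 11756 to 30182 and 56540 to 65528. Both lists include the genes that set the classes, so this contrast follows in part from the class rule. It is no independent support for the labels. Plac8 had a mean of 3976 CPM in Plac8-high cells, and C1qa, C1qb and C1qc had means of 6081, 6867 and 5056 CPM in C1q-high cells. The Plac8-high cells of PBS 2 carried the most macrophage RNA of the Plac8-high libraries.

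Blood monocytes enter the colon wall throughout life and turn into resident macrophages in place. Monocytes are known as a source of coagulation factor XIIIA, which crosslinks fibrin, and of fibronectin and versican, which form a provisional matrix. Tissue macrophages are known for matrix metalloproteases that cut elastin and collagen, held in check by tissue inhibitors of metalloproteases. In the colon this turnover of matrix goes on below an epithelium that is exposed to food and microbes.

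The genes lay on 6 chromosomes of GRCm38. F13a1 (ENSMUSG00000039109) spans chr13:36867178-37050244 on the minus strand, Fn1 chr1:71585520-71653200, also minus, and Mmp13 and Mmp12 lie near each other on the plus strand of chromosome 9, at chr9:7272514-7283331 and chr9:7344381-7369499. The stretches below are the 120 bases before RefSeq transcription starts of the pair (GRCm38.p6). They are shown because Mmp12 and Mmp13 had the highest correlation across cells of any pair of these genes, and the capitals mark the motifs that were found.
Mmp13, chr9:7272394-7272513, plus strand: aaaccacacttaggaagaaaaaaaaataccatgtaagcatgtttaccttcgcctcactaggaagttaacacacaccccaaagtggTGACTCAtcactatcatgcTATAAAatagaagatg
Mmp12, first start, chr9:7344277-7344396, plus strand: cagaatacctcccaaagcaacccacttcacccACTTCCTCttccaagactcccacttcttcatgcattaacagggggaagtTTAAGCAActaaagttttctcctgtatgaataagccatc
Mmp12, second start, chr9:7347254-7347373, plus strand: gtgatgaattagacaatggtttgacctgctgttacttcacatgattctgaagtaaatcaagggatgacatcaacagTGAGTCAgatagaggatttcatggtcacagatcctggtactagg
Both strands of the 250 bases before each start were searched for TGANTCA (the AP-1 motif, where N is any base), TATAAA (the TATA box), TTGCNNAA (C/EBP) and GAGGAAGT (PU.1). Mmp13 held TGACTCA at positions -35 to -29 and TATAAA at -16 to -11, counted from the base before the start as -1. The second start of Mmp12 held TGAGTCA at -44 to -38. Its first start held the C/EBP letters on the minus strand at -39 to -32 and the PU.1 letters on the minus strand at -88 to -81. Of 32851 promoters of the same length, 6.75% held the AP-1 motif, 12.4% the TATA box, 9.56% the C/EBP motif and 2.44% the PU.1 motif. RefSeq entries were matched for 7 of the 9 genes, and those of F13a1, Vcan, Sdc4, Timp2 and Mmp14 held none of these letters in this window. Fn1 and Thbs1 had no entry in the promoter set used here.

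The genes that monocytes secrete stood higher in Plac8-high cells. F13a1, the catalytic subunit of clotting factor XIII, had 142, 195, 287 and 579 CPM in Plac8-high cells of DEP 14, DEP 15, PBS 2 and PBS 3. In C1q-high cells of the same mice it had 95.9, 98.9, 29.7 and 73.7 CPM. Plac8-high cells were the higher class in 4 of 4 mice, but by little in the DEP mice and by much in the PBS mice: the log2 ratio, with 10 CPM added to both levels, was 0.52 and 0.91 against 2.90 and 2.82. F13a1 was seen in 55 of 160 Plac8-high cells and in 81 of 506 C1q-high cells, or 34.4% (95% exact binomial interval 27.1 to 42.3) and 16.0% (12.9 to 19.5). After every cell was thinned to 1000 UMIs these shares were 18.8% and 8.3%.

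Fn1 codes for fibronectin, a matrix glycoprotein that cells bind through integrins. Its levels in Plac8-high cells were 81.0, 103, 174 and 270 CPM, in the same order of mice, and 5.99, 22.0, 3.71 and 19.2 CPM in C1q-high cells. It was higher in the Plac8-high class of 4 of 4 mice, with no overlap between the classes and a mean log2 ratio of 2.84 ± 0.85 (SD, n = 4 mice). It had a UMI in 23.1% of Plac8-high cells (16.8 to 30.4) and in 2.6% of C1q-high cells (1.4 to 4.4).

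Thbs1 codes for thrombospondin-1, a matricellular protein that binds CD47 and activates latent transforming growth factor beta. It had 108, 384, 195 and 240 CPM in Plac8-high cells and 33.0, 44.0, 18.6 and 57.5 CPM in C1q-high cells. The classes did not overlap, and the mean log2 ratio was 2.26 ± 0.70 (SD, n = 4). Of the 38 cells of both classes, 31.6% held a UMI of Thbs1 (17.5 to 48.7) and 15.8% one of F13a1 (6.0 to 31.3), and Fn1 was seen in 1.

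Vcan codes for versican, a large chondroitin sulfate proteoglycan, and was sparse. Plac8-high cells held 1, 11, 0 and 5 UMIs of it (6.75, 63.0, 0 and 49.9 CPM), and C1q-high cells held 0, 1, 0 and 1. Over all mice that is 17 UMIs against 2, a ratio of 32.8 with a 95% counting interval of 7.78 to 292. It was the member with the fewest cells, with a UMI in 12 of the 643 retained cells, and it had been listed among the monocyte markers as well.

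**Figure D1:**
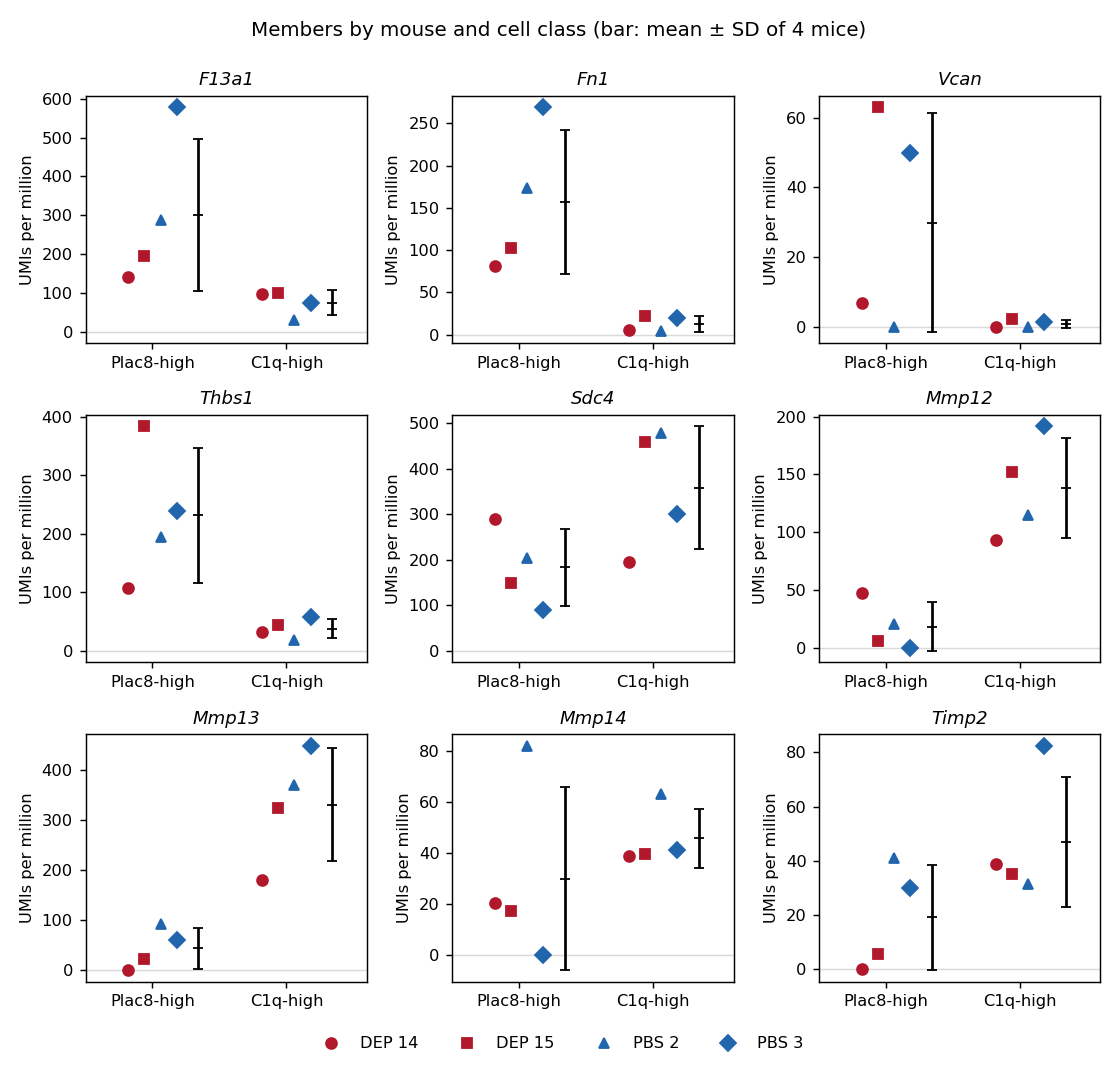
CPM (y axis, a scale of its own in each panel) of the 9 genes in Plac8-high and C1q-high cells (x axis). Each point is 1 mouse, red for DEP and blue for PBS, and the bar gives the mean ± SD of the 4 mice. F13a1, Fn1 and Thbs1 sit higher in the Plac8-high cells of every mouse and Mmp12 and Mmp13 lower.

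The metalloproteases ran the other way. Mmp13, collagenase-3, had 180, 323, 369 and 448 CPM in C1q-high cells of DEP 14, DEP 15, PBS 2 and PBS 3, and 0, 22.9, 92.2 and 59.9 CPM in Plac8-high cells. It was lower in Plac8-high cells of 4 of 4 mice, with a mean log2 ratio of -3.05 ± 1.0 (SD, n = 4; Plac8-high over C1q-high, 10 CPM added to both). Mmp12, the macrophage elastase, had 92.9, 152, 115 and 192 CPM in C1q-high cells and 47.3, 5.73, 20.5 and 0 CPM in Plac8-high cells, where 7 of its 10 UMIs came from a single cell of DEP 14. Both enzymes were carried by a minority of the C1q-high cells, 33.2% for Mmp13 (29.1 to 37.5) and 15.6% for Mmp12 (12.6 to 19.1), and within them by a few cells at high counts: 1 cell of DEP 15 held 57 of the 147 Mmp13 UMIs of its C1q-high library. Thinned to 1000 UMIs, the shares of C1q-high cells were 18.0% and 6.9%, and those of Plac8-high cells 0.6% for each.

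Mmp14 is the membrane-bound protease that activates pro-MMP2 at the cell surface, and Timp2 is the inhibitor that also takes part in that activation. Mmp14 had 39.0, 39.6, 63.1 and 41.2 CPM in C1q-high cells and 20.3, 17.2, 82.0 and 0 CPM in Plac8-high cells, where PBS 2 was above all C1q-high libraries. Timp2 had 39.0, 35.2, 31.6 and 82.5 CPM in C1q-high cells and 0, 5.73, 41.0 and 30.0 CPM in Plac8-high cells. Both were lower in the Plac8-high class of 3 of 4 mice, PBS 2 being the exception for each, and their ranges overlapped between the classes. The mean log2 ratios were -0.90 ± 1.11 for Mmp14 and -1.18 ± 1.08 for Timp2 (SD, n = 4). The mean of Mmp14 was thus smaller in size than the spread between mice, and that of Timp2 little larger.

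Sdc4 codes for syndecan-4, a heparan sulfate proteoglycan of the cell surface that acts with integrins at sites of adhesion to fibronectin. It had 195, 459, 479 and 302 CPM in C1q-high cells and 290, 149, 205 and 89.9 CPM in Plac8-high cells. In DEP 14 the Plac8-high cells were the higher class, and in the other mice the lower. It was the member seen in most cells, with a UMI in 53.6% of C1q-high cells (49.1 to 58.0) and 19.4% of Plac8-high cells (13.6 to 26.4), and its mean log2 ratio was -0.96 ± 1.03.

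For scale, 15.9% of the 8648 genes with at least 10 UMIs in the classes were higher in Plac8-high cells of all 4 mice and 13.3% were lower in all 4. Of the 9 genes, F13a1, Fn1 and Thbs1 were higher in all 4 mice and Mmp12 and Mmp13 lower in all 4, a pattern for which they had been listed. Without the 38 cells of both classes, Mmp13 held 1 UMI in 122 Plac8-high cells and Mmp12 held 1, and the mean log2 ratio of Mmp13 was -4.71. All 9 mean ratios kept their sign in all deposited cells, in thinned cells, when Plac8-high was set by a share of UMIs and when the classes excluded each other.

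**Figure D2:**
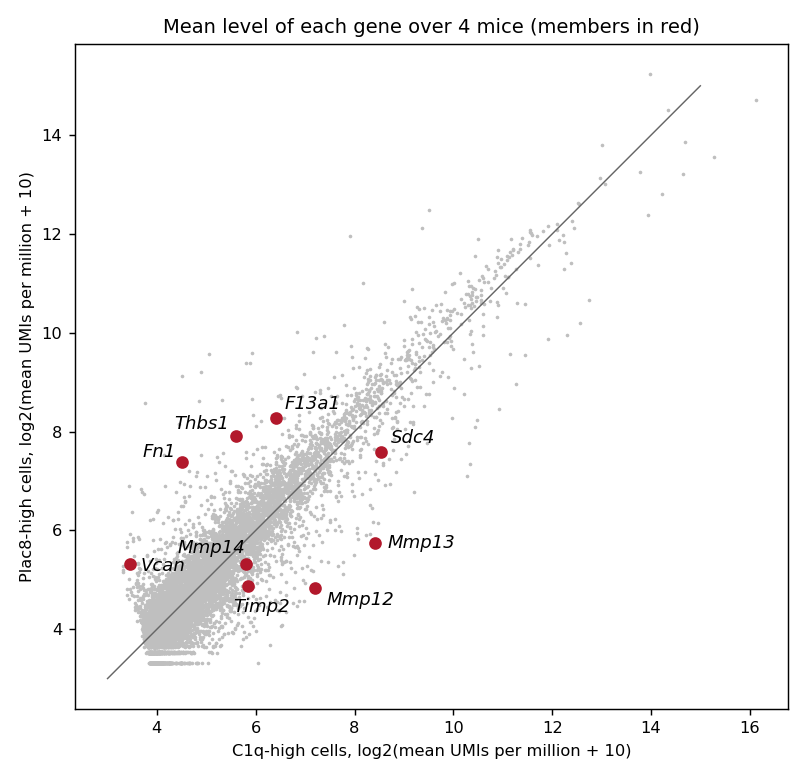
Mean level over the 4 mice of each of 8648 genes (grey) in C1q-high cells (x axis) and Plac8-high cells (y axis), as log2 of CPM plus 10, with the line of equal level. F13a1, Fn1, Thbs1 and Vcan lie above the line and Mmp12, Mmp13, Sdc4, Mmp14 and Timp2 below it.

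Stromal, platelet and neutrophil markers were low in the retained cells. Stromal and platelet markers were among those used to leave cells out, so their low sums follow in part from that rule. The 10 stromal markers, among them Col1a1 and Dcn of fibroblasts, had no UMI in Plac8-high cells and summed to 6.0 to 26 CPM in C1q-high cells, with no UMI of Col1a2, Lum and Pdgfrb. None of the 8 platelet markers, which include Ppbp and Itga2b, had a UMI in Plac8-high cells, and Ppbp alone was seen in C1q-high cells. Of the 10 neutrophil markers, 3 had a UMI in the retained cells, and S100a8, S100a9, Cxcr2, Retnlg and Ly6g were among those with none. Mmp8, the neutrophil collagenase, with Csf3r made up the 92 to 150 CPM of the list in Plac8-high cells. A marker without a UMI can be at 0 or absent from the deposited genes, and these were not told apart. Neutrophil and dendritic markers were not used to leave cells out. The 8 dendritic markers summed to 81.0, 246, 30.7 and 160 CPM in Plac8-high cells of DEP 14, DEP 15, PBS 2 and PBS 3. In C1q-high cells they summed to 13.2 to 62.9 CPM. Free RNA in droplets was gauged in 14 B or plasma-like cells that were not C1q-high, at a median of 7074 UMIs per cell against 3115 in Plac8-high and 3371 in C1q-high cells. F13a1 had a UMI in 2 of the 14 (14.3%, interval 1.8 to 42.8), Mmp13 in 2, and Fn1 and Mmp14 in 1 each (7.1%, 0.2 to 33.9), while Thbs1, Vcan, Mmp12 and Timp2 were in 0 of 14, which allows a share of up to 21.4%. Sdc4 was in 7 of the 14 (interval 23.0% to 77.0%). Plac8 had a UMI in 6 of the 14 and C1qa in 6, so free RNA, doublets and the cells' own expression cannot be told apart in them. With so few such cells, the share of Plac8-high cells with a UMI of Thbs1 (31.3%) was the only share of a gene in either class that lay above what these counts allow, so no other share alone can be read as expression.

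Across the 643 cells, Mmp12 and Mmp13 went together more than any other pair of these genes, with a Pearson r of 0.37 on log2(1 + UMIs per 10000 UMIs). F13a1 and Fn1 followed with 0.29, and F13a1 and Mmp13 had -0.22. Timp2 and Mmp14, inhibitor and target in one complex, had -0.01. These values describe cells of 4 libraries that share depth and class, and Vcan was too rare to be included.

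**Figure D3:**
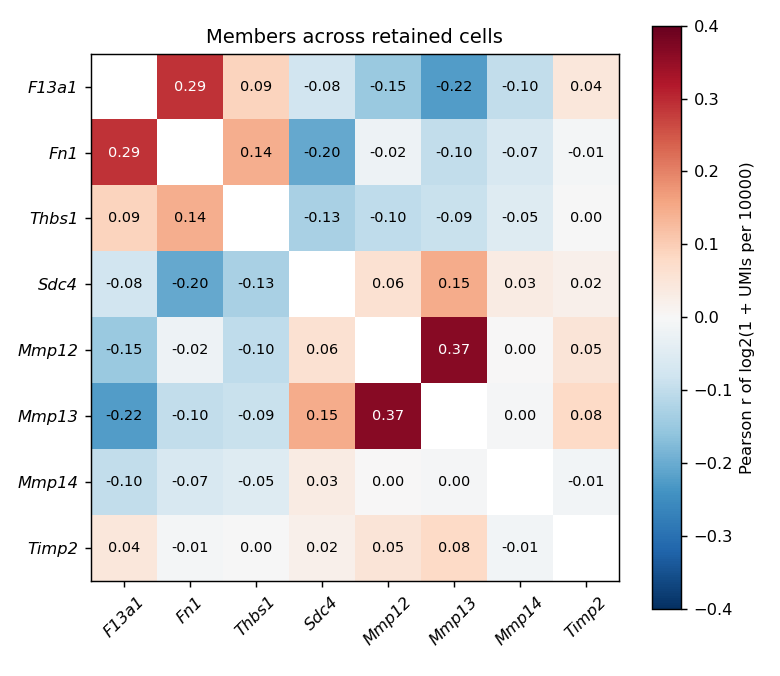
Pearson correlation (colour and number) of 8 of the genes across the 643 retained cells, on log2(1 + UMIs per 10000 UMIs). Mmp12 with Mmp13 (0.37) and F13a1 with Fn1 (0.29) are the deepest red cells.

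Of 5088 genes in at least 5% of the cells, those most like F13a1 were S100a10, a plasminogen-binding partner of annexin A2 (r = 0.37), Ifitm3 (0.35) and Alox5ap (0.34). Fn1 was most like S100a4 (0.47), the haptoglobin gene Hp (0.42) and Capg (0.40), and Thbs1 was most like Clec4e (0.35), Hp (0.33) and Plac8 (0.32). Mmp12 came with Mmp13, H2-M2 (0.32) and Cd72 (0.27), and Mmp13 came with Mmp12, the tetraspanin gene Cd9 (0.35) and the acid phosphatase gene Acp5 (0.34). Sdc4 was nearest to Fth1 (0.26), C5ar1 (0.25) and C1qa (0.25), Timp2 to Pf4 (0.24), Vcam1 (0.21) and Cd36 (0.20), and Mmp14 to Nudt18, Mgat5 and Bcl2a1d, each at 0.20. In counts this sparse a low r carries little.

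Whether oral DEP changed these genes was asked over mice, with the UMIs of each class summed per mouse. In all retained cells no gene of the 9 passed edgeR's quasi-likelihood test at an adjusted p of 0.05 (0 of 8 tested, Vcan being under the filter on low counts), where 12 of 5088 genes passed, or 0.236%. At an unadjusted p under 0.05 were 2 of the 8 and 399 genes in all (7.84%), and DESeq2 called 0 of the 8. Mmp13 came nearest. It had 139 and 245 CPM after DEP and 348 and 393 CPM after PBS. Its log2 fold change (log2FC, DEP over PBS) was -0.97 ± 0.22 (SE), with an adjusted p of 0.134. Both DEP mice were below both PBS mice, as they were for 16.3% of all genes tested. The difference was -0.64 in all 943 deposited cells (153 and 267 against 331 and 333 CPM, adjusted p = 0.781). Mmp14 had the same order in the retained cells (30.1 and 34.1 against 58.9 and 36.1 CPM, log2FC -0.57 ± 0.35, edgeR adjusted p = 0.751). F13a1 overlapped between the groups, with 97.3 and 125 against 74.1 and 148 CPM (log2FC -0.06 ± 0.28), and its log2FC was -0.31 in all deposited cells. Timp2 was 28.9 ± 1.78 CPM in DEP and 51.7 ± 32.6 CPM in PBS mice (SD, n = 2), a difference carried by PBS 3. In such sums over all cells, fewer cells of a class and less RNA per cell cannot be told apart: Plac8-high cells were 37.8% and 29.9% of the retained cells of the DEP mice and 18.9% and 16.6% of those of the PBS mice, and C1q-high cells were 72.1% and 70.1% against 88.2% and 83.4%. Before cells were left out, Plac8-high cells were 29.1% and 23.7% against 19.0% and 16.4%, and C1q-high cells 78.8% and 75.1% against 88.0% and 85.5%. Thbs1 had a log2FC of 0.73 in the retained and 0.17 in all deposited cells, and Timp2 -0.94 and -0.37, with the groups overlapping throughout.

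In Plac8-high cells, 7 of the 9 genes could be tested and 0 passed, as did 0% of the 4920 genes. At an unadjusted p under 0.05 there were 250 genes (5.08%), 3 of them among the 7, and DESeq2 also called 0 genes. F13a1 had 142 and 195 CPM after DEP and 287 and 579 CPM after PBS (log2FC -1.32 ± 0.36 SE, adjusted p = 0.932). Fn1 had 81.0 and 103 CPM against 174 and 270 (log2FC -1.23 ± 0.38, adjusted p = 0.932). Mmp13 had 0 and 22.9 CPM against 92.2 and 59.9, from 4 UMIs against 15. In all deposited Plac8-high cells F13a1 had 101 and 188 against 221 and 398 CPM (log2FC -1.15 ± 0.35, adjusted p = 0.661 by edgeR), and Fn1 overlapped between the groups (70.1 and 131 against 125 and 188 CPM). In the retained cells, for these 3 genes both DEP mice lay below both PBS mice, which was so for 16.7% of all genes. Thbs1, Sdc4, Vcan and Mmp14 overlapped between the groups, with log2FC of 0.23 ± 0.48, 0.58 ± 0.46, 0.55 ± 1.08 and -1.07 ± 1.05. Timp2, which was under the filter, had 1 UMI in the DEP mice and 7 in the PBS mice, a ratio of 0.0876 with a counting interval of 0.00194 to 0.682. In all deposited Plac8-high cells that gap was gone: Timp2 had 13 UMIs against 10, with 21.9 and 30.0 against 29.5 and 33.1 CPM, and a ratio of 0.833 (0.337 to 2.12). Mmp13 went from a ratio of 0.163 (0.0395 to 0.513) in the retained cells to 0.376 (0.194 to 0.707) in all deposited ones, from 17 UMIs against 29, with both DEP mice still below. These intervals pool the UMIs of the mice of a group and leave out the spread between mice. By edgeR the adjusted p of Mmp13 was 0.932 in the retained cells and 0.753 in all deposited ones. Mmp12, under the filter in both, went from 8 UMIs against 2 to 13 against 18. The order of the groups changed for a pair of other genes: Sdc4 had 245 and 330 against 236 and 127 CPM, now higher in both DEP mice, and Mmp14 had 17.5 and 18.8 against 73.7 and 22.1 CPM, now lower in both (edgeR adjusted p = 0.859 and 0.879).

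**Figure D4:**
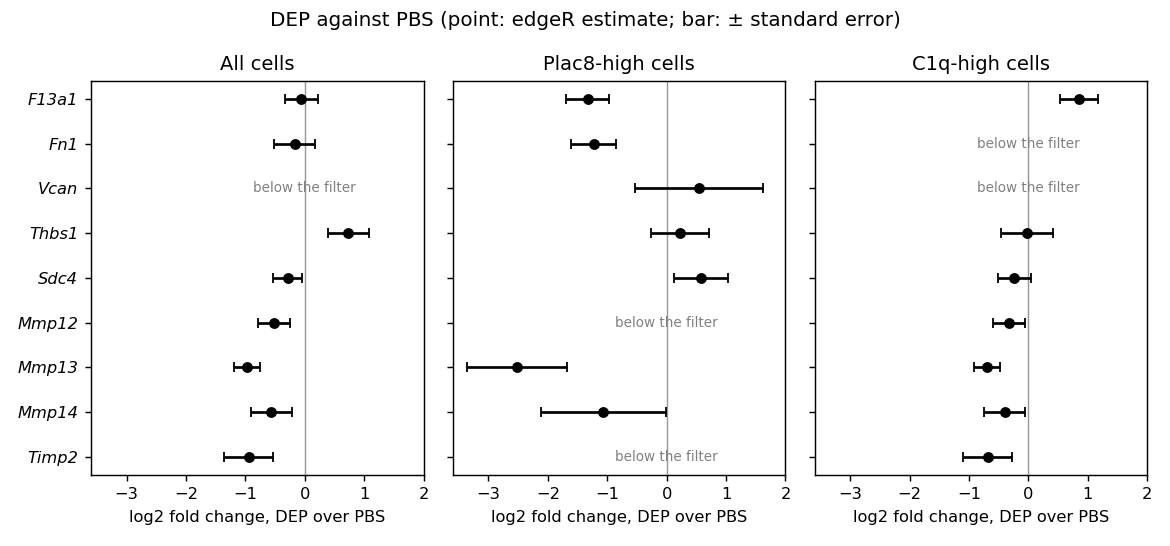
Log2 fold change of DEP over PBS mice (x axis; point, edgeR estimate; bar, ± 1 standard error) for each gene (y axis) in all cells, Plac8-high cells and C1q-high cells. No point passed the adjusted test, and F13a1 lies left of 0 in Plac8-high cells (-1.32) and right of 0 in C1q-high cells (0.85).

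The value for F13a1 depended on which cells counted as Plac8-high. PBS 2 had 16 of its 32 Plac8-high cells in the C1q-high class as well, against 13 of 42 in DEP 14, 5 of 58 in DEP 15 and 4 of 28 in PBS 3. In the 122 cells that were Plac8-high alone (29, 53, 16 and 24 per mouse) the levels were 105 and 217 CPM after DEP and 520 and 687 CPM after PBS, from 10, 32, 26 and 58 UMIs. F13a1 fell there (log2FC -1.78 ± 0.35 SE, edgeR adjusted p = 0.000287), among 22 of 4419 genes called, or 0.498%. It was seen in 4 of 29 and 20 of 53 of these cells after DEP and in 8 of 16 and 17 of 24 after PBS. In all deposited cells that were Plac8-high alone F13a1 had 72.7 and 236 against 441 and 606 CPM. Fn1 had, in the retained ones, 126 and 122 CPM against 320 and 320, and its log2FC of -1.28 ± 0.42 did not pass (adjusted p = 0.205). Sdc4 had 347 and 115 CPM against 40.0 and 107, where 14 of the 33 UMIs of DEP 14 came from 1 cell. In all deposited cells that were Plac8-high alone, Fn1 had 102 and 173 against 252 and 274 CPM, and Sdc4 276 and 241 against 142 and 97.8 CPM. In the retained ones the monocyte markers summed to 12012 and 12702 CPM after DEP and 11688 and 13349 CPM after PBS. The macrophage markers there summed to 8233 and 6099 against 9426 and 8528. The monocyte sum includes Plac8, which sets the class and had 5664 and 5047 CPM after DEP and 3903 and 4122 CPM after PBS. The sums therefore do not show the other monocyte markers to be level between the groups. What was left of the monocyte sum without Plac8 was lower in both DEP mice than in both PBS mice, and its part in the result was not tested. The B and plasma markers summed to 526 and 890 against 340 and 355 CPM, and their part in the result was not tested. A fall of F13a1 in monocyte-like cells of these mice was known when the genes were picked, so it is no independent support.

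In C1q-high cells, 7 genes were tested and 0 passed, with 0% of 5196 genes called, 314 genes (6.04%) and 2 of the 7 at an unadjusted p under 0.05, and 0 genes called by DESeq2. F13a1 was on the opposite side here, with 95.9 and 98.9 CPM after DEP and 29.7 and 73.7 CPM after PBS (log2FC 0.85 ± 0.32 SE, adjusted p = 0.723). Both DEP mice were above both PBS mice, as for 18.8% of all genes, but in all deposited cells the groups overlapped (59.2 and 70.8 against 23.7 and 70.9 CPM). Mmp13 had 180 and 323 against 369 and 448 CPM (log2FC -0.70 ± 0.22, adjusted p = 0.563), and Mmp14 had 39.0 and 39.6 against 63.1 and 41.2. These were the 2 genes with both DEP mice below both PBS mice, against a background of 17.4%. In all deposited C1q-high cells Mmp13 stayed so (184 and 330 against 354 and 367 CPM), and Mmp14 overlapped (50.4 and 47.5 against 63.8 and 46.6 CPM, log2FC -0.15 ± 0.25). Mmp12 (-0.33), Sdc4 (-0.24), Thbs1 (-0.03) and Timp2 (-0.69) overlapped between the groups, and Fn1 and Vcan were under the filter, with 12 UMIs against 15 and 1 against 1. Their log2FC in all deposited cells were -0.37, -0.23, -0.31 and -0.42 for Mmp12, Sdc4, Thbs1 and Timp2, again with overlap.

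The opposite signs of F13a1 were tested directly. Its fall in monocyte-like cells was known when the genes were picked, so this test is no independent support either. The model took 8 libraries, the Plac8-high alone and the C1q-high alone cells of each mouse, with the mouse as a block, and asked whether the DEP effect differed between the classes. It called 15 of 5138 genes, or 0.292% (288 genes, or 5.61%, at an unadjusted p under 0.05), and F13a1 was the only member among them: its log2FC was lower in Plac8-high than in C1q-high cells, by a difference of -2.52 ± 0.44 (SE, adjusted p = 0.00135). Within a mouse the log2 ratio of the classes, with 10 CPM added, was 0.44 and 1.04 after DEP and 3.78 and 3.03 after PBS. In all deposited cells the difference was -2.14 (adjusted p = 0.0314). Without PBS 2 it was -2.23 and no longer passed (adjusted p = 0.970), whereas it passed without each of the other mice in turn.

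Fn1, Thbs1 and Sdc4 had UMIs enough for the same test. Fn1 gave -1.76 ± 0.80 (SE, adjusted p = 0.807) and Thbs1 0.62 ± 0.62 (adjusted p = 1.0). In all deposited cells Fn1 gave -0.52 ± 0.71 and Thbs1 0.40 ± 0.57. The value of Fn1 ran from -3.96 to -0.52 over 7 alternatives. Sdc4 gave 1.67 ± 0.63 (adjusted p = 0.566). In C1q-high alone cells Sdc4 had 196 and 468 CPM after DEP and 489 and 309 CPM after PBS. It passed when the marker rule was used without immunoglobulins (2.02, edgeR adjusted p = 0.0101), a rule chosen after seeing the data. It did not pass in all deposited cells (1.47, edgeR adjusted p = 0.423). Leaving out 1 mouse gave 0.27 without DEP 14 and 0.93 without PBS 2, against 3.15 without DEP 15 and 3.14 without PBS 3. The other members had 3 UMIs or fewer in a group of the Plac8-high alone cells or the C1q-high alone cells, and no difference is given for them.

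**Figure D5:**
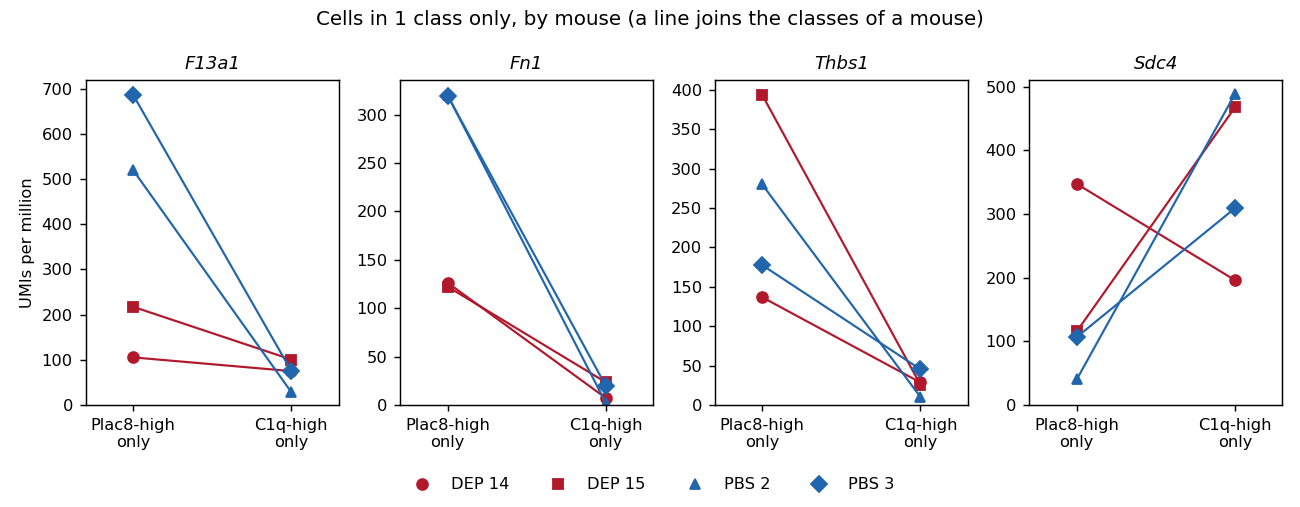
CPM (y axis) of the 4 genes with enough UMIs in cells that were Plac8-high alone and C1q-high alone (x axis), a line joining the classes of each mouse (red DEP, blue PBS). The lines of F13a1 are steep in the PBS mice (520 and 687 to 28.5 and 75.4) and shallow in the DEP mice (105 and 217 to 74.8 and 101).

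Other genes of the same processes were read from the same fits. No gene passed edgeR's test or that of DESeq2 in any of 6 lists in all cells, Plac8-high cells or C1q-high cells: other metalloproteases of the Mmp, Adam and Adamts families, other protease inhibitors, clotting and fibrinolysis, other matrix proteins, other proteoglycans, and matrix receptors. The lists held 33, 17, 36, 44, 27 and 21 genes, of which 7, 5, 12, 8, 5 and 14 were tested in all cells and 1, 2, 1, 1, 2 and 3 had an unadjusted p under 0.05, and the medians of their log2FC were -0.30, -0.13, 0.07, -0.13, 0.11 and -0.19 against -0.01 over all genes. The widest gap of a single gene in all cells was that of Adamdec1, a metalloprotease of gut macrophages, with 11.6 and 13 CPM after DEP and 38.7 and 54.1 after PBS (log2FC -1.95 ± 0.41 SE, adjusted p = 0.068). F10, clotting factor X, had 53.3 and 30.8 against 13.5 and 12.9 CPM (log2FC 1.57 ± 0.43, adjusted p = 0.243). Ecm1, an extracellular matrix protein, had 211 and 245 against 313 and 323 CPM (log2FC -0.52 ± 0.17, adjusted p = 0.384). For each of these the groups did not overlap, which for a rise such as that of F10 was so for 22.3% of all genes, and none changed by the test.

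In Plac8-high cells F10 again had the higher DEP levels (155 and 109 against 41.0 and 79.9 CPM, adjusted p = 0.932), and Mmp8 had 20.3 and 22.9 against 71.7 and 79.9 CPM (-1.74 ± 0.61, adjusted p = 0.932). In C1q-high cells Adamdec1 had 12.0 and 15.4 against 40.8 and 61.9 CPM (adjusted p = 0.163). Plaur, the urokinase receptor, had 111 and 92.3 against 206 and 143 CPM (-0.80 ± 0.24, adjusted p = 0.505).

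Between the classes, the abundant genes of these lists fell on both sides. Slpi, an inhibitor of serine proteases, had 370 ± 180 CPM in Plac8-high and 3.53 ± 2.54 CPM in C1q-high cells (SD, n = 4), higher in 4 of 4 mice. Anxa2 and S100a10, which together bind plasminogen, had 964 ± 291 and 773 ± 246 CPM against 156 ± 45.8 and 188 ± 84.5 CPM. Lgals3, galectin-3, and Srgn, serglycin, were higher in Plac8-high cells of all 4 mice by 1.0 ± 0.29 and 0.98 ± 0.34 on the log2 scale, and Cd44, the hyaluronan receptor, and Cd47, the receptor of thrombospondin-1, by 0.48 ± 0.17 and 0.75 ± 0.14. Lair1, a collagen receptor, was lower in 4 of 4 mice (104 ± 34.8 against 308 ± 38.8 CPM), as was Adam19 (18.4 ± 21.1 against 99.3 ± 29.5 CPM). Of the 15 matrix receptors with enough UMIs, 3 were higher and 9 lower in Plac8-high cells of all mice.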

How the data were processed

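Cells of 4 mice were captured in 1 well per mouse with the 10x Genomics 3′ v2 kit. The authors aligned and counted the reads with Cell Ranger (STAR 2.6.1a per the submitters' processing notes) on mm10, removed cells of low quality, and deposited UMI counts per gene and cell, not normalized, as 1 table of 943 cells. Cells were assigned to mice by the number at the end of their names. Symbols were taken from the Ensembl IDs for 12576 of 12596 genes.

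The 9 genes, the gene lists and the tests were chosen with earlier results of these data known. Cells with UMIs of 3 or more markers of 1 other cell type were left out. UMI counts were summed per mouse and class, and genes over 1 CPM in at least 2 libraries and seen in at least 5% of the cells were tested with edgeR 4.0.16 (R 4.3.3; TMM, quasi-likelihood test, two-sided, Benjamini-Hochberg over all genes tested). The replicate is the mouse, n = 2 per group. An exact permutation test of 2 against 2 mice cannot go below p = 0.333, so none was used. Standard errors were derived from the F statistic. CPM in the text is without TMM factors. Intervals of shares are exact binomial at 95%, and they and the limit that a count of 0 allows (3 counts) cover counting error only. So do the counting intervals of ratios, which pool the UMIs of several mice and leave out the spread between mice. No doublet caller was run here, since the authors' methods report a search for doublets before deposit. Thinning drew 1000 UMIs per cell, and no cell had fewer.

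Genes named beyond the 9 were, for each list and comparison, those called and those with the largest rise and fall among genes whose groups did not overlap (the text gives some of these), the 3 genes per list with the highest level over both classes, and the 3 genes most correlated with each of the 9. On simulated counts with 200 changed genes, log2 changes of 1 and 2 were recovered at 40% and 95% in all cells, 0% and 10% in Plac8-high cells, 38% and 89% in C1q-high cells, and 4% and 15% in the test of the difference between classes, over 5088, 4920, 5196 and 5138 genes. Alternatives were DESeq2 1.42.0, library size alone, the likelihood ratio test, no filter, all deposited cells, thinned cells, other class rules and leaving out each mouse. Promoter sequence was read from RefSeq (GRCm38.p6). The values of 1 gene of the wider lists are not reported here, though the counts and medians of its list include it.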

Additional observations from a re-analysis of the deposited data

Results flagged for a closer look

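The effect of DEP on F13a1 differed between Plac8-high and C1q-high cells by the test of the difference itself (edgeR quasi-likelihood, mouse as block, 8 libraries): log2 difference -2.52 ± 0.44 (SE), adjusted p = 0.00135. Within a mouse the log2 ratio of the classes was 0.44 and 1.04 after DEP and 3.78 and 3.03 after PBS. The share of all genes with such an order of the ratios was not counted. Over 7 alternatives the difference ran from -3.07 to -2.07 and its adjusted p from 7.74e-05 to 0.970, the latter without PBS 2, and 6 of the 7 passed. F13a1 rested on 42 and 84 UMIs in the Plac8-high alone cells of the DEP and PBS mice and on 64 and 64 UMIs in the C1q-high alone cells. Immunoglobulin, macrophage and Plac8 RNA differed between these libraries as given above, and their part in the result was not tested. The fall of F13a1 in monocyte-like cells was known when the genes were picked, and the alternatives refit the same mice. The test is therefore no independent support.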

How the results depend on the processing

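No paired analysis was possible because the DEP and PBS mice share no number; the test of the difference between classes had the mouse as a block. Counts of all genes called moved most. In all cells 12 genes were called, against 2 with DESeq2, 8 with library size alone, 29 with the likelihood ratio test, 77 with no filter, 5 in thinned cells, and 1 each in all deposited cells and under the marker rule without immunoglobulins (chosen after seeing the data). In Plac8-high cells, 0 became 5 with the likelihood ratio test, 23 with no filter, 2 in all deposited cells and 22 without cells of both classes. In C1q-high cells, 0 became 7 with library size alone, 13 with the likelihood ratio test, 39 with no filter, 1 in all deposited cells and 5 with C1q at 1% or more. For the difference between classes, 15 became 3 in all deposited cells, and the number under the marker rule without immunoglobulins is not given here. Leaving out 1 mouse gave 19 to 58, 11 to 26, 0 to 43 and 0 to 16 genes in the 4 tests. Such fits have 1 group of a single mouse, assumed to vary like the other. Of the 9 genes, 1 (Mmp13) was called in all cells with the likelihood ratio test and with no filter, 1 (F13a1) in Plac8-high cells without cells of both classes, and 2 (F13a1 and Sdc4) in the difference between classes under the marker rule without immunoglobulins. Without 1 mouse it was 0 to 1, 0 to 1, 0 to 2 and 0 to 2 genes: Mmp13 in all cells without DEP 15 (-1.46) or PBS 2 (-1.04), Thbs1 without DEP 14 (1.18), F13a1 in Plac8-high cells without PBS 2 (-1.72), Sdc4 (-1.03) and Mmp13 (-1.22) in C1q-high cells without DEP 15, and Sdc4 in the difference without DEP 15 (3.15). The cause of these moves was not tested, beyond the smaller number of cells, mice or genes.

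In C1q-high cells Thbs1 (-0.03) turned to 0.13 with C1q at 1% or more and to 0.0060 with DESeq2. Leaving out 1 mouse in turn gave log2FC on both sides of 0 in all cells for F13a1 (-0.43 to 0.54), Fn1 (-0.53 to 0.32), Thbs1 (-0.12 to 1.18) and Sdc4 (-0.69 to 0.092), in Plac8-high cells for Vcan (-1.73 to 5.40), Thbs1 (-0.98 to 0.83) and Mmp14 (-2.10 to 4.47), and in C1q-high cells for Thbs1 (-0.56 to 1.05), Sdc4 (-1.03 to 0.24), Mmp12 (-0.77 to 0.097) and Timp2 (-1.17 to 0.20). For the difference between classes Thbs1 ran from -1.15 to 1.46, and Sdc4 kept its sign but ran from 0.27 without DEP 14 to 3.15 without DEP 15. F13a1 kept its sign in all 13 alternatives in Plac8-high cells (-1.78 to -0.77, called in 2) and in C1q-high cells (0.36 to 1.69, called in 0), and Fn1 in all 13 in Plac8-high cells (-1.48 to -0.69). Depth limits the rest: 10 UMIs of Mmp12, 8 of Timp2 and 17 of Vcan in Plac8-high cells.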
